A study of Mus musculus with 6 samples.

Results

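The hypoxia response genes are 10 mouse genes of the pathway through which cells answer low oxygen, apart from its glycolytic and VEGF targets. They were taken by symbol from the 41214 gene rows of an expected-count table: Hif1a, Epas1, Egln1, Egln3, Adm, Bnip3, P4ha1, P4ha2, Ankrd37 and Ddit4. All 10 had a row and all 10 had enough counts to be tested, among 10952 genes tested. The table holds 6 RNA libraries from endothelial cells of embryonic mouse hearts, 2 in each of 3 groups that differ in Dll4, the gene of a Notch ligand. The KO libraries came from embryos labelled Dll4-/-, from crosses of Dll4 flox/flox mice. The het libraries came from embryos labelled Dll4+/-, from crosses of Dll4 flox/flox mice with wildtype. The wt libraries came from crosses that carried no floxed Dll4. Every group carried Pdgfb-iCreERT2-IRES-EGFP, a transgene in which Pdgfb regulatory sequences drive a tamoxifen-inducible Cre recombinase together with EGFP, so the wt group also carried Cre and also received tamoxifen. Tamoxifen was given at E13.5, hearts were collected at E14.5, and cells positive for CD31 and GFP were sorted. EGFP reports the transgene and not the recombination of Dll4, and the number of hearts behind each library is not given in the sources used here. The p-values below therefore measure the spread between these libraries, which may be partly technical.

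Hypoxia-inducible factors are pairs of an alpha subunit, encoded by Hif1a or Epas1, and the partner encoded by Arnt. In the presence of oxygen the prolyl hydroxylases encoded by the Egln genes mark the alpha subunits for destruction through the VHL ubiquitin ligase. When oxygen is low the subunits persist, enter the nucleus and bind the hypoxia response element near target genes. In endothelium Epas1 is the alpha subunit known for its high expression. Control of this pathway lies mainly in the stability of the proteins, which these RNA counts do not measure.

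Library totals were 4987999 and 6501789 counts in KO, 1537894 and 3165535 in het, and 1732132 and 2521532 in wt. Counts of the 10 genes in a library lay between 28, for P4ha2 and for Ddit4, and 1935 for Hif1a. Dll4 had 19.4 and 13.7 CPM (counts relative to the TMM-scaled library size) in KO, 81.2 and 85.9 CPM in het, and 196 and 183 CPM in wt, so the 3 groups did not overlap and followed their labels. Lars2 took at most 0.0611% of the counts of a KO library and at least 16.3% of a het or wt library. Mitochondrial genes took 0.971% and 1.13% in the KO libraries and 2.50% to 6.04% in the het and wt libraries. The small RNAs 7SL and 7SK took at most 0.00239% of a KO library and at least 0.138% of a het or wt library. No label gives a date or batch, so genotype and these differences in library makeup cannot be told apart. All 10 endothelial markers had counts in every library, with sums of 5591 to 5672 CPM in KO, 6082 to 6531 CPM in het and 6561 to 6790 CPM in wt. The 10 cardiomyocyte markers summed to 47.5 to 51.8 CPM in KO, 171 to 217 CPM in het and 103 to 113 CPM in wt. The 7 macrophage markers summed to 7.46 to 23.9 CPM in KO, 51.0 to 180.2 CPM in het and 18.0 to 59.5 CPM in wt. The 12 genes of the response to tissue dissociation summed to 1009 to 1017 CPM in KO, 1168 to 1545 CPM in het and 886 to 1018 CPM in wt. These sums hide opposite moves. At an edgeR adjusted p under 0.05, 4 of the 12 were higher and 2 lower in KO against wt. Over all genes 14.7% were higher and 17.3% lower. The log2 fold changes of the 12 ran between -2.155 and 1.894. In het against wt 1 was higher and 0 lower, where 0.128% and 0.0457% of all genes were. The 9 mural and fibroblast markers summed to 46.0 to 85.3 CPM in KO, 162 to 200.3 CPM in het and 64.2 to 104 CPM in wt, with Tcf21 at 0 in a KO and a wt library and Pdgfrb at 0 in a wt library. The 8 erythroid markers summed to 184 to 236 CPM in KO, 118 to 379 CPM in het and 145 to 417 CPM in wt. No endothelial, cardiomyocyte, macrophage or dissociation gene was at 0 in any library. The part of any of these differences in the results was not tested.

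In KO against wt, 6 of the 10 genes rose (Hif1a, Adm, Bnip3, P4ha1, P4ha2 and Ankrd37) and 2 fell (Epas1 and Ddit4). Egln1 and Egln3, which encode oxygen-sensing hydroxylases, did not pass the test. Calls rest on edgeR's quasi-likelihood test with Benjamini-Hochberg adjustment over all genes tested and a threshold of 0.05. They took in 32% of all genes in KO against wt, made up of 14.7% of all genes that were higher and 17.3% that were lower in KO. The median log2 fold change was 0.50 over the 10 genes and -0.02 over all genes tested. In het against wt none of the 10 was called by edgeR's quasi-likelihood test, where the background was 0.173% of genes (0.128% higher and 0.0457% lower), and 3 (Hif1a, Epas1 and P4ha2) had an unadjusted p under 0.05, where the background was 8.15%. The 10 genes also gave 0 calls in het against wt under DESeq2, limma-voom and every other setting tried. In KO against het 7 rose and 2 fell, against a background of 31.2% of genes (13.9% higher and 17.2% lower), and Egln1 was the gene that did not pass. Both KO libraries lay above both wt libraries in 7 of the 10 genes and below them in 2, where the background over all genes was 33.2% and 34.5%. Set against het, the KO libraries lay above in 7 and below in 2, where the background was 31.4% and 33%. The het libraries lay above the wt libraries in 2 of the 10 and below them in 4, where the background was 19.2% and 18.8%. The comparisons share libraries, so KO against wt and KO against het are not independent of each other.

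**Figure D1:**
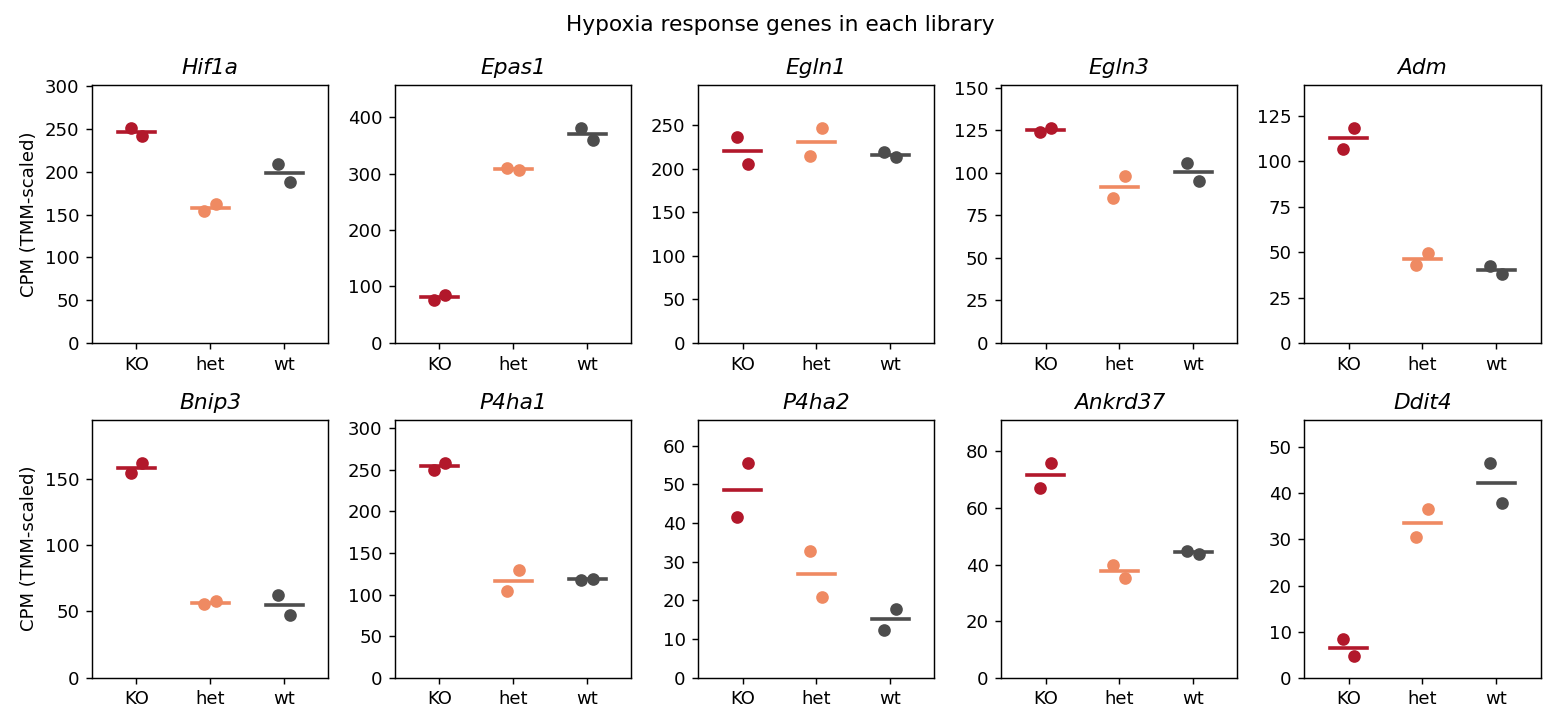
Level of each of the 10 genes in each library, in CPM with TMM-scaled library sizes, with KO, het and wt from left to right; points are libraries and bars are group means (n = 2). The KO libraries lie above the wt libraries for Adm, Bnip3, P4ha1, P4ha2 and Ankrd37 and below them for Epas1 and Ddit4, while the Egln1 values of the groups overlap.

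**Figure D2:**
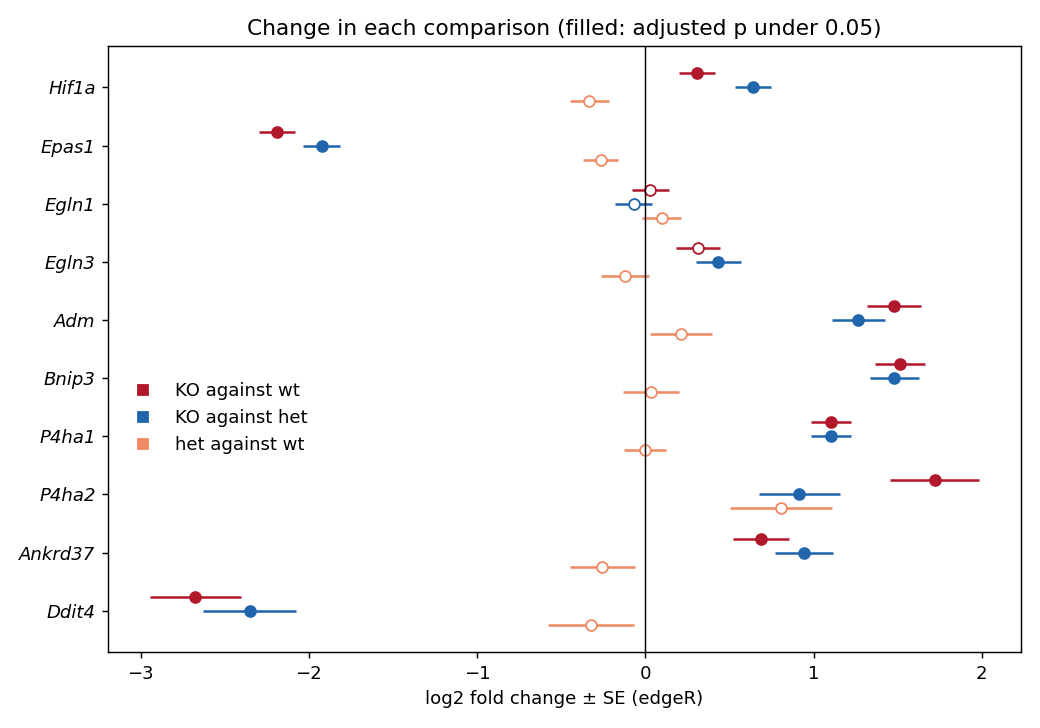
Log2 fold change of each of the 10 genes in KO against wt, KO against het and het against wt, with bars of 1 SE from edgeR; filled points have an adjusted p under 0.05. The KO against wt values run between -2.67 for Ddit4 and 1.72 for P4ha2, and no het against wt point is filled.

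The 2 alpha subunits moved in opposite directions in KO against wt. The Hif1a rise was the smaller, and its call was lost under some other settings, given below. Epas1 encodes HIF-2 alpha and lies at chr17:86753700-86833410 on the plus strand (GRCm38, ENSMUSG00000024140). Its level was 76.9 and 85.7 CPM in the KO libraries, 309.8 and 307 CPM in the het libraries, and 381 and 359 CPM in the wt libraries. Both KO libraries were far below all of the others, and both het libraries were a little below both wt libraries. Epas1 was 4.56-fold lower in KO than in wt, a log2 fold change of -2.19 ± 0.11 (SE) with an adjusted p of 3.98e-12. It was 3.80-fold lower in KO than in het (log2 fold change -1.92 ± 0.11, adjusted p 2.78e-11). Between het and wt the log2 fold change was -0.27 ± 0.10 with an adjusted p of 0.462. The fall was called under all 16 other settings in KO against wt, with log2 fold changes between -2.28 and -1.83. Of the 10 endothelial markers, 2 were higher, 3 were lower and 5 were not called in KO against wt. Over all genes 14.7% were higher and 17.3% lower. The log2 fold changes of these markers ran between -2.285 and 0.77, with a median of 0.02. In bulk RNA fewer cells of a type and less RNA per cell cannot be told apart.

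Hif1a encodes HIF-1 alpha and lies at chr12:73901375-73947530 on the plus strand (ENSMUSG00000021109). Its level was 251 and 242 CPM in KO, 154 and 162 CPM in het, and 209 and 189 CPM in wt. The 3 groups did not overlap, with KO highest and het lowest. Hif1a rose by a log2 fold change of 0.31 ± 0.11 when KO was set against wt (adjusted p 0.0326) and in KO against het by 0.64 ± 0.11 (adjusted p 1.22e-04). For het against wt it was at -0.33 ± 0.11 with an adjusted p of 0.371. The KO against wt call was lost with DESeq2 (adjusted p 0.0928), with counts thinned to the smallest library total (0.0603), and when KO replicate 1 (0.165), KO replicate 2 (0.0885) or wt replicate 5 (0.224) was left out. The KO against het call held under all 16 settings. Gm15283, an antisense gene that overlaps exons of Hif1a, had at most 5.04 counts in a library. Gm49321 overlaps exons of Hif1a on the same strand and had no count, so its part is unknown.

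Dividing each level by the summed exon length of its gene allows levels of different genes to be set side by side, but only roughly. The length takes in every annotated exon of a gene, whether or not these cells use it. On this scale, CPM per kilobase of exon, the ratio of Hif1a to Epas1 was 3.10 and 2.68 in the KO libraries, 0.471 and 0.500 in the het libraries, and 0.520 and 0.497 in the wt libraries. Epas1 RNA was therefore the more abundant of the 2 alpha subunits in each het and wt library and the less abundant in each KO library. Epas1 averaged 14.54 ± 1.11 CPM per kilobase in KO, 55.1 ± 0.385 in het and 66.2 ± 2.73 in wt (SD, n = 2). Hif1a averaged 41.8 ± 1.15 CPM per kilobase in KO, 26.8 ± 0.971 in het and 33.7 ± 2.44 in wt.

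The order of all 10 genes per exon length also differed between KO and the other groups. In wt Epas1 was at the top, followed by Egln1 at 60.2 ± 1.25 CPM per kilobase. Next were Egln3 at 37.7 ± 2.87 and Hif1a at 33.7 ± 2.44. Egln3 (39.7 and 35.7) was above Hif1a (35.4 and 32.0) in both wt libraries, though their SD ranges overlapped. Below them in wt, Ankrd37 and P4ha1 at 28.8 CPM per kilobase each, and then Adm, Bnip3 and Ddit4 at 24.1 to 24.8, did not differ from their neighbours within each of these sets beyond the spread of the libraries. In het Egln1 was at the top at 64.2 ± 6.44, Epas1 came next, and Adm, P4ha1, Hif1a, Bnip3 and Ankrd37 lay together between 24.4 and 28.5 CPM per kilobase. In KO Bnip3 at 69.9 ± 2.47 and Adm at 69.6 ± 5.03 led and did not differ beyond their spread, nor did P4ha1 at 61.8 ± 1.56 and Egln1 at 61.5 ± 6.26, or Egln3 at 47.0 ± 0.694 and Ankrd37 at 46.5 ± 4.07. Epas1, P4ha2 and Ddit4 were the lowest in KO, with Ddit4 at 3.72 ± 1.44 CPM per kilobase. P4ha2 was the lowest of the 10 in het at 4.30 ± 1.34 and in wt at 2.41 ± 0.601.

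**Figure D3:**
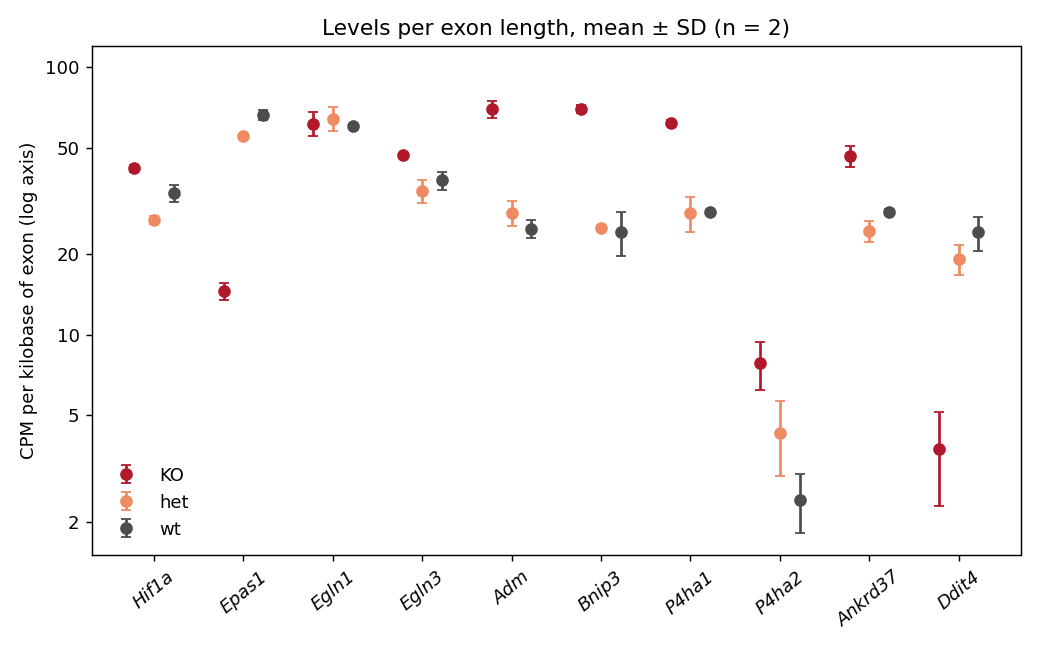
Mean level ± SD of each gene per kilobase of exon (log axis; CPM with TMM-scaled library sizes over the summed exon length, n = 2 libraries), with KO, het and wt from left to right. Epas1 is at 14.54 in KO, below Hif1a at 41.8, and at 66.2 in wt, above Hif1a at 33.7.

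Neither prolyl hydroxylase gene of the 10 was called in KO against wt. Egln1 encodes PHD2, the main hydroxylase of the HIF alpha subunits, and lies at chr8:124908587-124949324 on the minus strand (ENSMUSG00000031987). It had 237 and 205 CPM in KO, 214 and 247 CPM in het, and 219.6 and 213 CPM in wt. All of the groups overlapped. Its log2 fold change was 0.03 ± 0.11 in KO against wt (adjusted p 0.868), 0.10 ± 0.12 for het against wt and, between KO and het, -0.07 ± 0.11. With library size as the only scaling, which moved the median of all genes to 0.35 in KO against wt, Egln1 was called at 0.39.

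Egln3 encodes PHD3, a hydroxylase that is itself a target of the HIF proteins, and lies at chr12:54178981-54203860 on the minus strand (ENSMUSG00000035105). It had 124 and 126 CPM in KO, 85.5 and 98.1 CPM in het, and 106 and 94.9 CPM in wt. Both KO libraries were above all of the others, and het and wt overlapped. Egln3 was not called in KO against wt (0.31 ± 0.13, adjusted p 0.0754) and was called in KO against het (0.43 ± 0.13, adjusted p 0.0160). The KO against het call was lost with DESeq2, with thinned counts and when KO replicate 1, KO replicate 2 or het replicate 2 was left out. The KO against wt value was called without the filter on low counts (adjusted p 0.0446) and with library size as the only scaling, at 0.67 (adjusted p 3.45e-04), where the median of all genes was 0.35.

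The other 6 genes are known targets of the HIF proteins, and windows before their start sites were read for the letters of the hypoxia response element core. The letters searched were ACGTG and GCGTG, on both strands, in the 250 bases before the annotated start of each gene in RefSeq (GRCm38.p6). A window was found for 9 of the 10 genes, and for Epas1 none. All 9 windows held a match to ACGTG or GCGTG, against 38.6% of 32851 RefSeq promoters, which were not limited to the genes tested. The 10 genes were chosen as members of the HIF pathway, so these shares describe the windows and test nothing. Among the 19344 promoters with at least 50% GC, as all 9 had, it was 51.3%. This floor does not match the windows for GC content, which ran between 50.8% for Egln3 and 86.0% for Egln1. The median GC content over all promoters was 52.4%. ACGTG was in 8 of the 9 windows, against 16.6% of all promoters and 20.1% of those with at least 50% GC. GCGTG was in 7 of the 9, against 28.2% of all promoters. Bnip3 had 5 matches and Ankrd37 had 4, which 1.01% of promoters reached or exceeded at 5 and 2.58% at 4. The Ankrd37 match nearest the start and the only ACGTG of Egln1 lie in annotated exon bases of their own genes. Without its exon bases the Ankrd37 window held 3 matches. CACGTG is its own reverse complement and counts as ACGTG on each strand. Windows of genes that rose, of Ddit4, which fell, and of Egln1, which was not called, all held matches. The windows below are shown for 4 targets that rose in KO and for Ddit4, which fell, with the matched letters in capitals and the strand of the gene read 5′ to 3′. The lines for Bnip3 (chr7:138909520-138909756, minus strand) and Ddit4 (chr10:59951835-59952020, minus strand) stop before the first annotated exon. Those for Adm (chr7:110627407-110627656), P4ha1 (chr10:59323046-59323295) and P4ha2 (chr11:54100674-54100923), on the plus strand, are whole. The RefSeq start used for P4ha2, and likewise for Hif1a and Ankrd37, lies inside the gene span that GENCODE gives, so these windows lie within that span and before an internal start.
Bnip3: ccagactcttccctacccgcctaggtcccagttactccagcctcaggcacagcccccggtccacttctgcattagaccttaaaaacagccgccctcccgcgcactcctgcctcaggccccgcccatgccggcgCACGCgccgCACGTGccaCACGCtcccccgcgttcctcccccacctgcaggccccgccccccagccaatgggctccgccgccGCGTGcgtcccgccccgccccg
Adm: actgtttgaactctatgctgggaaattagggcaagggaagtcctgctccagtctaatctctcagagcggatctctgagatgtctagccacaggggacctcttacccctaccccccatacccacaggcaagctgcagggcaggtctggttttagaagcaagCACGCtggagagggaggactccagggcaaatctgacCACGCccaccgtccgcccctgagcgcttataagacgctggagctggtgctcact
P4ha1: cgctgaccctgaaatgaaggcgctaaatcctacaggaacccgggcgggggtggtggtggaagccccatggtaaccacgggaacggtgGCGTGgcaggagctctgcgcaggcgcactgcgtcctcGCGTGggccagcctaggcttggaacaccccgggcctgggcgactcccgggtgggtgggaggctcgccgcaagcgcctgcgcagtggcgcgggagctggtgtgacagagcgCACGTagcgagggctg
P4ha2: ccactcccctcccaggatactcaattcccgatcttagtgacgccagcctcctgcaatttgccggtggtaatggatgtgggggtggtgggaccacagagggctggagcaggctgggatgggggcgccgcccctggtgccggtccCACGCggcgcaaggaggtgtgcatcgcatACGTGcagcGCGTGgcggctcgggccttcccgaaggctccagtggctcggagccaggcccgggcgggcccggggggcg
Ddit4: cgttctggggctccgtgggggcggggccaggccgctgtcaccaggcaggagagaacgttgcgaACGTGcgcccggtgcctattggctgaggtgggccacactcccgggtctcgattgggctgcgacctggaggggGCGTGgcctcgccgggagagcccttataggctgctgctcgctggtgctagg
A match is a description of these letters and not a measured binding site.

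Adm encodes adrenomedullin, a secreted peptide that acts on endothelial cells and is needed for normal lymphatic and cardiac development. It lies at chr7:110627661-110629820 on the plus strand (ENSMUSG00000030790). Adm had 107 and 118 CPM in KO, 42.7 and 49.6 CPM in het, and 42.4 and 38.0 CPM in wt. The KO libraries stood well above the others, and het lay just above wt without overlap. The gene rose 2.78-fold in KO against wt (log2 fold change 1.48 ± 0.16, adjusted p 5.05e-07) and by 1.27 ± 0.16 on the log2 scale in KO against het (adjusted p 2.84e-06). The het against wt value was 0.21 ± 0.18 with an adjusted p of 0.812.

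Of the 5 adrenomedullin receptor genes 4 were tested, and in KO against wt 1 rose and 2 fell. The share over all genes was 14.7% higher and 17.3% lower. Calcrl, the receptor itself, averaged 186 CPM in KO, 109 in het and 147 in wt, with a log2 fold change of 0.33 ± 0.12 in KO against wt (adjusted p 0.0364). That call was lost with DESeq2, with thinned counts and when KO replicate 1, KO replicate 2, wt replicate 4 or wt replicate 5 was left out. Ackr3, a receptor that takes up adrenomedullin and chemokines, was 3.31-fold lower in KO than in wt (27.6 CPM in KO and 91.8 CPM in wt, adjusted p 4.24e-04). Ramp2, the partner that gives Calcrl its preference for adrenomedullin, fell by 0.46 on the log2 scale in KO against wt (adjusted p 0.00375), a call lost with library size as the only scaling and when KO replicate 2 or wt replicate 4 was left out. Ramp3, the other adrenomedullin partner, was not called, with 9.92 CPM in KO and 14.55 CPM in wt.

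Bnip3 encodes a protein of the outer mitochondrial membrane that takes part in mitophagy, the removal of mitochondria. It lies at chr7:138890836-138909519 on the minus strand (ENSMUSG00000078566). Bnip3 had 154 and 162 CPM in KO, 55.6 and 57.6 CPM in het, and 62.1 and 47.5 CPM in wt. The KO libraries were above all of the others, and het lay within the range of wt. It rose 2.85-fold in KO against wt (log2 fold change 1.51 ± 0.15, adjusted p 1.18e-07) and by 1.48 ± 0.15 on the log2 scale in KO against het (adjusted p 1.59e-07), with 0.03 ± 0.17 in het against wt. Bnip3 has near-identical processed copies in the genome, so reads could be split among them. The copies Gm16439 and Gm14506, with 99.1% identity over 558 bases and 93.4% over 530 bases, had 0 counts in all 6 libraries. Other aligned sequences, among them AC160336.1 with 96.8% identity over 1621 bases and Gm6532 with 98.7% over 555 bases, had no count read here, so their share of the reads is unknown. Exons of Bnip3 also overlap 504 bases of Gm45507 on the opposite strand, which had no count. The kit does not mark strand, so the part of Gm45507 is unknown too.

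No other mitophagy gene was called higher in KO against wt. Bnip3l, its close relative and likewise a mitophagy receptor, averaged 195 CPM in KO, 186 in het and 187 in wt and was not called (log2 fold change 0.05 ± 0.12 in KO against wt). Of the 15 mitophagy receptors and adaptors tested, none rose and 2 fell, where 14.7% of all genes were higher and 17.3% lower. The median log2 fold change of this list was -0.03 in KO against wt. Gabarap and Map1lc3b, which encode ubiquitin-like proteins of the autophagosome membrane, fell by 0.79 (adjusted p 2.85e-05) and by 0.49 (adjusted p 0.00105) on the log2 scale. The Map1lc3b call was lost with library size as the only scaling, under which 5 genes of the list were higher.

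P4ha1 and P4ha2 encode catalytic subunits of the collagen prolyl hydroxylase, which modifies collagen chains in the endoplasmic reticulum. P4ha1 lies at chr10:59323296-59373304 (ENSMUSG00000019916) and P4ha2 at chr11:54100095-54131665 (ENSMUSG00000018906), both on the plus strand. P4ha1 had 249.6 and 259 CPM in KO, 105 and 129 CPM in het, and 118 and 119 CPM in wt. The KO libraries were above all of the others and the wt values lay within those of het. P4ha1 rose 2.15-fold in KO against wt (log2 fold change 1.10 ± 0.12, adjusted p 5.41e-07) and by 1.10 ± 0.12 on the log2 scale in KO against het (adjusted p 5.30e-07).

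P4ha2 had 41.7 and 55.6 CPM in KO, 32.8 and 20.9 CPM in het, and 12.4 and 17.7 CPM in wt. The 3 groups did not overlap, with het between KO and wt. The rise of P4ha2 in KO against wt, 3.29-fold, was the largest of the 10 genes (log2 fold change 1.72 ± 0.26, adjusted p 4.20e-05). In KO against het it was 0.91 ± 0.24 (adjusted p 0.00632), a call lost without KO replicate 2 (adjusted p 0.0811) or without het replicate 3 (adjusted p 0.166). In het against wt it was 0.80 ± 0.30 with an adjusted p of 0.436, the largest size among the 10 genes in that comparison and not called. Per exon length P4ha1 was above P4ha2 in every library, by 9.08 and 7.05 times in KO, 4.85 and 9.35 times in het and 14.4 and 10.2 times in wt.

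Among the 15 collagen-modifying enzymes tested, 3 rose and 3 fell in KO against wt, with a median log2 fold change of 0.14. These shares are near those of all genes, 14.7% higher and 17.3% lower. P4hb, the subunit that completes the collagen prolyl hydroxylase, rose by 0.49 ± 0.09 (adjusted p 3.69e-04), with 844 CPM in KO, 496 in het and 599 in wt. The lysyl hydroxylases Plod1 (0.55 ± 0.11, adjusted p 4.23e-04) and Plod2 (0.62 ± 0.15, adjusted p 0.00414) rose, and the collagen galactosyltransferase Colgalt1 fell by 0.46 on the log2 scale (adjusted p 0.00170). The count of falls depended on the setting: it was 1 with DESeq2, without KO replicate 1 or without wt replicate 5, and 0 with library size as the only scaling.

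Ankrd37 encodes an ankyrin repeat protein whose gene is a known HIF target, and it lies at chr8:45996902-46005707 on the minus strand (ENSMUSG00000050914). Its level per exon length was 43.6 and 49.4 CPM per kilobase in KO, 25.9 and 22.9 in het, and 29.2 and 28.4 in wt. The KO libraries were highest and the het libraries lowest, with no overlap between groups. Ankrd37 rose 1.61-fold in KO against wt (log2 fold change 0.69 ± 0.17, adjusted p 0.00329) and by 0.94 ± 0.17 on the log2 scale in KO against het (adjusted p 2.36e-04), with -0.26 ± 0.19 in het against wt. Its exons overlap 406 bases of Ufsp2 and Lrp2bp on the opposite strand, and the kit does not mark strand, so its value is uncertain. Ufsp2 had 304 and 244 counts in KO, 65 and 109 in het, and 111 and 48 in wt. These counts are not scaled for library totals, which were largest in KO. As a percentage of the Ankrd37 count, Ufsp2 was at 58.8 and 54.5 in KO, 116 and 108 in het, and 106 and 69.6 in wt. The part of Ufsp2 in the Ankrd37 values was not tested.

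Ddit4 encodes REDD1, an inhibitor of the growth kinase complex mTORC1, and is known to be induced by low oxygen, by stress and by glucocorticoids. It lies at chr10:59949669-59951834 on the minus strand (ENSMUSG00000020108). Ddit4 had 8.31 and 4.75 CPM in KO, 30.6 and 36.6 CPM in het, and 46.7 and 38.0 CPM in wt. Both KO libraries were far below all of the others, and het lay below wt without overlap. Ddit4 was 6.38-fold lower in KO than in wt (log2 fold change -2.67 ± 0.27, adjusted p 1.95e-07) and 5.10-fold lower in KO than in het (-2.35 ± 0.28, adjusted p 1.41e-06). The het against wt value was -0.32 ± 0.26 with an adjusted p of 0.781. Its fall in KO against wt held under all 16 settings, with log2 fold changes between -3.15 and -2.28. The KO replicates differed by 0.74 on the log2 scale, more than for any other of the 10 genes.

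Of the 15 mTORC1 genes tested, none rose and 1 fell in KO against wt, with a median log2 fold change of -0.04. Over all genes 14.7% were higher and 17.3% lower. The gene that fell was Eif4ebp2, which encodes a translation repressor that mTORC1 inactivates, with 25.1 CPM in KO, 84.4 in het and 87.1 in wt (log2 fold change -1.80 ± 0.16, adjusted p 2.74e-08). Tsc2, a subunit of the complex through which Ddit4 acts, averaged 71.1 CPM in KO and 54.1 CPM in wt and was not called (adjusted p 0.0627), but was with library size as the only scaling and without the filter on low counts. Of 9 glucocorticoid-induced genes tested, 2 rose and 3 fell in KO against wt, where 14.7% of all genes were higher and 17.3% lower. Sgk1, a kinase, rose by 0.75 ± 0.10 (adjusted p 1.33e-05), and Fkbp5, a chaperone of the glucocorticoid receptor, by 0.99 ± 0.16 (adjusted p 4.62e-05). Glul, glutamine synthetase, fell by 1.24 on the log2 scale (adjusted p 3.65e-06), and Per1, a clock gene, by 1.62 (adjusted p 8.72e-05).

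Other HIF targets outside the 10 genes, glycolysis and VEGF were read from a list of 34 genes, of which 29 were tested. In KO against wt 14 of the 29 rose and 4 fell, where 14.7% of all genes were higher and 17.3% lower. The median log2 fold change of the 29 was 0.61, against -0.02 over all genes tested. Without KO replicate 2 the number that rose was 9, and without wt replicate 4 it was 9, with 1 that fell. Apln, the gene of a peptide made by sprouting endothelium, averaged 442 ± 33.2 CPM in KO, 235 ± 2.13 in het and 245 ± 6.89 in wt (log2 fold change 0.85 ± 0.10, adjusted p 1.55e-06). Ero1l, an oxidase of the endoplasmic reticulum, averaged 245 ± 45.4 CPM in KO, 104 ± 3.73 in het and 102 ± 16.7 in wt (1.25 ± 0.14, adjusted p 1.74e-06). The histone demethylase gene Kdm3a rose by 0.83 ± 0.16 (adjusted p 4.65e-04), and Higd1a, the gene of a protein of the inner mitochondrial membrane, by 0.74 ± 0.15 (adjusted p 8.33e-04). The targets that fell included Stc1, Edn1 and Zfp395, named after their values were seen. Stc1, the gene of a secreted glycoprotein, fell by 0.66 on the log2 scale (adjusted p 0.00452). Edn1, the gene of the peptide endothelin, fell by 0.97 on the log2 scale (adjusted p 0.0278).

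The HIF machinery outside the 10 genes was read from a list of 15, of which 14 were tested. Of these, 4 rose and 2 fell in KO against wt, where 14.7% of all genes were higher and 17.3% lower. Their median log2 fold change was 0.13. Cul2, the scaffold of the VHL ubiquitin ligase, rose by 0.76 ± 0.15 (adjusted p 6.36e-04), and Arnt, the shared partner of both alpha subunits, by 0.71 ± 0.18 (adjusted p 0.00459), a call lost without wt replicate 5 (adjusted p 0.0822). Crebbp, a coactivator of the HIF proteins, was 2.15-fold lower in KO than in wt (adjusted p 2.75e-05), with 61.1 CPM in KO, 138 in het and 131 in wt. Elob, a subunit of the VHL ligase, fell by 0.46 on the log2 scale (adjusted p 0.00799), a call lost with library size as the only scaling, without KO replicate 1 and without wt replicate 5. The number that rose was 2 with DESeq2, with thinned counts, without wt replicate 4 or without wt replicate 5, and 8 with library size as the only scaling. In het against wt no gene of any of these 7 lists was called.

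**Figure D4:**
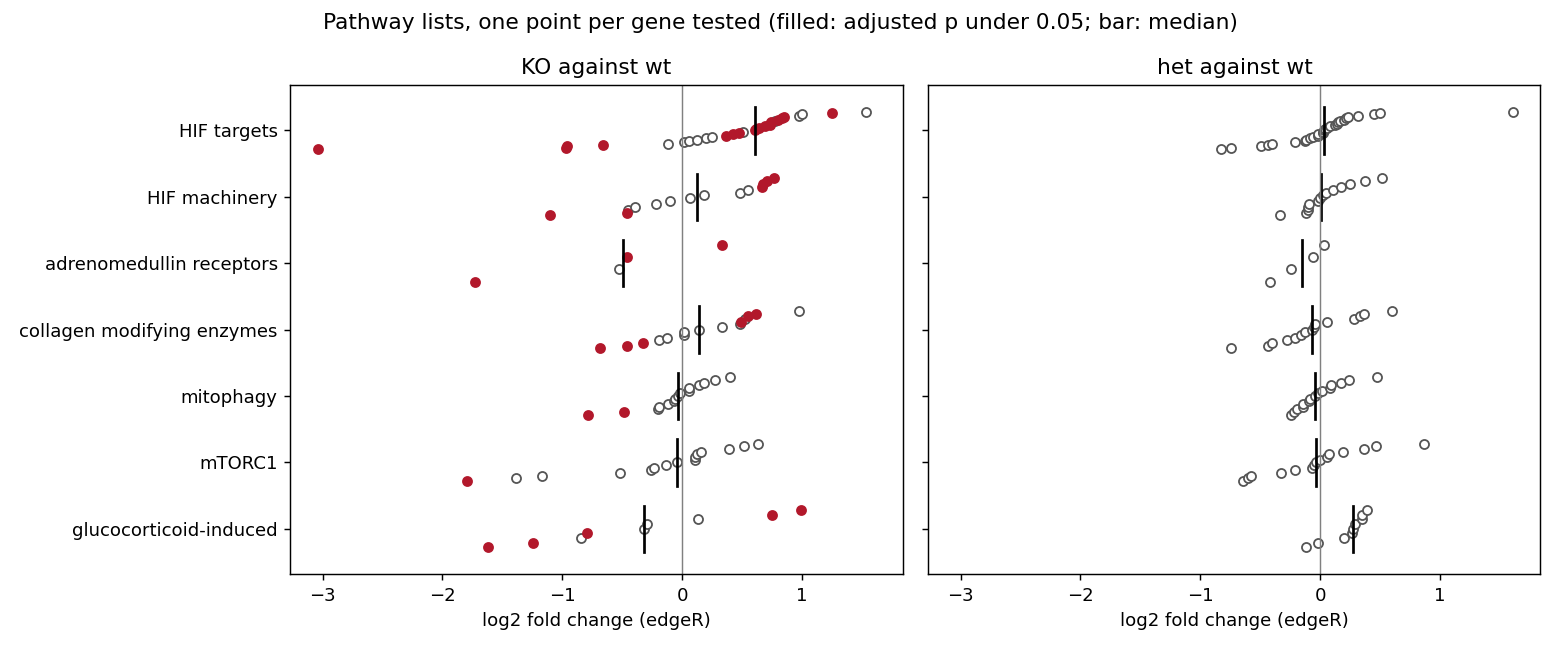
Log2 fold change (edgeR) of each tested gene of the 7 lists around the 10 genes, with KO against wt on the left and het against wt on the right; filled points have an adjusted p under 0.05 and bars are list medians. In KO against wt the median is 0.61 for HIF targets, -0.03 for mitophagy and -0.04 for mTORC1, and no het against wt point is filled.

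Genes whose pattern over the 6 libraries was nearest to that of the largest rise and the largest fall were sought among 9162 genes, by Euclidean distance between centred log2 CPM. For P4ha2 they were Rnd3 at a distance of 0.25, Mettl13 at 0.43 and Odc1 at 0.49. For Ddit4 they were Ntn1 at 0.30, Lrrc8a at 0.40 and Washc1 at 0.42. In KO against wt Rnd3 had a log2 fold change of 1.64 beside 1.72 for P4ha2, and Ntn1 one of -3.001 beside -2.67 for Ddit4. The patterns share the same 6 libraries, and the likeness is a description.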

How the data were processed

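The authors deposited expected counts per gene, estimated reads that need not be whole, in a table of 6 libraries. The tools were CASAVA, cutadapt and RSEM and the build GRCm38, per the submitters' processing notes, which give no versions. RSEM shares out reads that match several genes, so genes with near-identical copies carry uncertain values. RNA was amplified with SMART-Seq v4 and made into libraries with Nextera XT, per the labels' protocols, and the labels disagree on single or paired reads. The table held 0 columns of other samples. Symbols and positions came from GENCODE M21, which matched 97.9% of the gene identifiers.

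Expected counts were rounded. At a tolerance of 1e-09, 4.29% to 5.87% of all values in a library were not whole. Of the values above 0 it was 12.9% to 16.3%. The fit was made with edgeR 4.0.16 (R 4.3.3), TMM factors, filterByExpr (minimum count 10), and a robust quasi-likelihood fit of the 6 libraries with 3 residual degrees of freedom. Tests were two-sided, with Benjamini-Hochberg adjustment over 10952 genes. CPM used TMM-scaled library sizes, and log2 CPM a prior count of 2. Every adjusted p is from this edgeR test unless another tool is named. No pair of replicates was a duplicate: a chi-square per gene of 3.06 to 5.53 times its expectation separated them.

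Named genes were the 10 genes, Dll4, up to 4 genes of each list by adjusted p in KO against wt, lists of at most 5 measured genes whole, and 3 nearest patterns (average log2 CPM of at least 3) for the largest rise and fall. The genes, lists and tests were chosen with earlier results of these data known. One mitophagy symbol without a matching row was not analysed here. Some genes of these lists are not reported here. Alternatives were RLE scaling, library size only, other filters on low counts, DESeq2 1.42.0, limma-voom (limma 3.58.1), fits of 2 groups, thinning, leaving out Lars2 with mitochondrial, 7SL and 7SK genes, removing a GC content trend, and leaving out each library. The procedure was tested on simulated data.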

Additional observations from a re-analysis of the deposited data

How the results depend on the processing

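Of 16 other settings, all kept the direction of every called value of the 10 genes. Members of the 10 called numbered 7 to 8 when a library was left out and 7 to 10 otherwise for KO against wt, 7 to 9 and 8 to 10 for KO against het, and 0 throughout for het against wt. With library size as the only scaling the median over all genes moved to 0.35 (log2) for KO against wt and 0.36 for KO against het. For KO against wt 3878 genes were then higher and 1034 lower, against 1610 and 1899, and in KO against het 3930 and 1016, against 1524 and 1888; DESeq2 gave 992 higher in KO against het. Leaving out a library gave 2043 to 3815 calls in KO against wt, with 984 (without wt replicate 4) and 1048 (without wt replicate 5) higher and 1059 lower (without wt replicate 4). Against 19 calls in het against wt (14 higher, 5 lower), there were 150 (94 and 56) with no filter, 11 with limma-voom (7 higher), 42 (29 and 13) with thinned counts, 2 (1 and 1) without wt replicate 4, 76 (61 and 15) without het replicate 3, and 8 and 3 lower without het replicate 2 and wt replicate 5. The Dll4 call in het against wt did not hold without wt replicate 4, at -1.13 with an adjusted p of 0.0860. The cause was not tested.

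With library size as the only scaling, the lists in KO against wt had 8 higher and 1 lower of the HIF machinery, 2 lower HIF targets, 1 lower adrenomedullin receptor, 7 higher and 0 lower collagen enzymes, 5 higher and 1 lower mitophagy genes and 5 higher mTORC1 genes. Adrenomedullin receptors had 0 higher with DESeq2 and thinning. Collagen enzymes had 1 lower with DESeq2. HIF machinery had 2 higher with DESeq2 and thinning. Without the filter mitophagy had 1 higher, and mTORC1 1 higher and 2 lower, and mTORC1 had 2 lower in a fit of the 2 groups.

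Sign changes were confined to uncalled values near 0, except Egln1 in KO against het at 0.31 with library size only (adjusted p 0.0291). Leaving out a library gave Egln1 values of -0.074 (without KO replicate 1) to 0.14 for KO against wt, -0.17 to 0.049 (without het replicate 3; 0.039 without KO replicate 2) for KO against het, and -0.016 (without het replicate 3) to 0.19 for het against wt. It gave, for het against wt, Bnip3 values of -0.14 (without wt replicate 5; -0.0016 without het replicate 3) to 0.25 and Washc1 values of -0.17 to 0.057 (without wt replicate 4). Also for het against wt, where the difference was near 0, P4ha1 was at -0.0022 (RLE), -0.017 (library size only), -0.0043 (no filter), -0.0032 (DESeq2), -0.0023 (2 groups), -0.014 (thinned), -0.0019 (Lars2 and others left out) and -0.18 to 0.12 without a library. No paired analysis was possible because the groups compared share fewer than 2 replicate numbers. Depth limits P4ha2 and Ddit4, which each had 28 counts in a library.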
